A study of Drosophila melanogaster with 3 samples.

Results

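Peaks of the fusion protein CG18262-eGFP were examined at 10 heat shock and chaperone genes of Drosophila melanogaster: Hsp22, Hsp23, Hsp26, Hsp27, Hsp67Ba, Hsp67Bc, Hsp83, Hsc70-4, DnaJ-1 and Hsf. They were chosen by name, out of 13945 protein-coding genes on the main chromosome arms, and all 10 were found in the annotation. Earlier results of these data were known at the choice, so the counts below are not those of a list drawn blind. A peak was assigned to a gene when its summit, the base of highest signal, lay inside the gene or within 2000 bp of it. Of these genes, 6 were small heat shock genes of 1 cluster on arm 3L, and the other 4 lay elsewhere.

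The material was whole embryos of both sexes, 0 to 16 h old, from a fly line that carried CG18262 with GFP fused to its C-terminus. Chromatin was precipitated with an antibody against GFP, and the labels number 3 biological replicates, which formed 1 group with no heat shock or other treatment named. A transgene product is measured here, so the position of the untagged protein is not. In whole embryos, strong binding in few cells and weak binding in many cells cannot be told apart. Each replicate list and the list called on the pooled replicates held 30000 peaks, and a list thresholded on reproducibility held the 8529 strongest pooled peaks. Peaks were ranked by the authors' signal value within 1 list, rank 1 being the strongest. The read depth is unknown. The controls' reads and chromatin from flies without the tag were not analysed here, so signal that any antibody gives at open promoters cannot be told apart from that of the fusion protein.

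Heat shock genes encode chaperones, which bind unfolded proteins and keep them from aggregating or help them to refold. The heat shock factor, encoded by Hsf, forms trimers under stress and binds heat shock elements, which are inverted repeats of a short unit, in the promoters of these genes. In flies, many heat shock promoters also hold GAGA repeats, which are bound by the GAGA factor (Trl) and keep the promoter free of nucleosomes, and RNA polymerase II pauses there before heat shock. Several of the small heat shock genes are also expressed in normal development without stress.

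The sequences below are those in which the strongest summits at these genes lay, with Hsp23 and Hsc70-4 as promoters that had no thresholded summit. The upstream sequences are the 250 bases that end just before the outermost annotated start. They were read from the RefSeq genome sequence of dm6, 5′ to 3′ in the gene's direction. The positions are chr3L:9383813-9384062 on the plus strand for Hsp27, chr3L:9377428-9377677 on the minus strand for Hsp26, chr3L:9381632-9381881 on the plus strand for Hsp23 and chr3R:15242437-15242686 on the plus strand for Hsc70-4. The Hsp83 sequence holds the 50 bases on each side of the summit in its intron, at chr3L:3194221-3194321 on the plus strand. Capitals mark heat shock elements, searched as GAANNTTC or TTCNNGAA, and GAGAG on either strand.
Hsp27 upstream: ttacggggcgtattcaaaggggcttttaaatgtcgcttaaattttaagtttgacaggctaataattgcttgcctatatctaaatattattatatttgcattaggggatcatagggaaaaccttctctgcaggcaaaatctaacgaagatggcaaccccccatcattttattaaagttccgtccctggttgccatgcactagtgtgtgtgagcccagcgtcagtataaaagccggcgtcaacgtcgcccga
Hsp26 upstream: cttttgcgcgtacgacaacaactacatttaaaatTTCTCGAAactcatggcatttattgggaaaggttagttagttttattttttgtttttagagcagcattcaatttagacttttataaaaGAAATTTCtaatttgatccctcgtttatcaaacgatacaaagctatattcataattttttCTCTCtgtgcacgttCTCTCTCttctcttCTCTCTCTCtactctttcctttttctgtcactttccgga
Hsp23 upstream: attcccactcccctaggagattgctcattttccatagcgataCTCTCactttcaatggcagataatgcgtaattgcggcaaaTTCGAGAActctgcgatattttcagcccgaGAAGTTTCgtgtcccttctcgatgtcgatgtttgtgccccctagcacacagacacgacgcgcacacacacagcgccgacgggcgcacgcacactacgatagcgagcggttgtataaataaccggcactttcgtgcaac
Hsc70-4 upstream: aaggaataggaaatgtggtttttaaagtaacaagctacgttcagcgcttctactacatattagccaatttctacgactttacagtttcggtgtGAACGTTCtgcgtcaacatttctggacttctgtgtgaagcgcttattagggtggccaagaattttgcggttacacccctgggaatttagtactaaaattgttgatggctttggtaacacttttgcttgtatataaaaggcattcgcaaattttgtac
Hsp83 intron summit: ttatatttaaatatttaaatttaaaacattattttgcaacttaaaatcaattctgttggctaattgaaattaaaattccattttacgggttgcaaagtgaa
The Hsp27 sequence, with the strongest summit of all 10 genes, held neither a heat shock element nor GAGAG, and nor did the Hsp83 intron sequence. Hsp26 held both, Hsp23 held both without a thresholded summit, and Hsc70-4 held 1 heat shock element.

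Of the 10 genes, 8 had at least 1 thresholded summit in their window, against 43.8% of all protein-coding genes. Inside the genes themselves, without the 2000 bp on each side, 3 had one, namely Hsp22, Hsp83 and DnaJ-1, against 15.6%. For the window with 2000 bp on each side, the share was 36.9% among protein-coding genes no longer than Hsf. Hsf is the longest of the 10, with 4332 bp. The 2 genes without a thresholded summit in this window were Hsc70-4 and Hsf. In the pooled list all 10 genes had a summit, against 59.4% of all protein-coding genes, and 6 had one inside the gene, against 29.3%. The count was also 10 in each replicate list, against 61.5% of all protein-coding genes in replicate 1, 64.8% in replicate 2 and 62.5% in replicate 3. The count of 8 includes genes that shared a summit with a neighbour, because the windows overlap. The 8 genes held 12 assignments of only 8 distinct summits, 4 of which were shared by a pair of these genes.

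A narrower measure was a thresholded summit within 500 bp of an annotated start of the gene itself. Of the 10 genes, 5 had one, namely Hsp27, Hsp26, Hsp22, Hsp83 and DnaJ-1, against 26.7% of all protein-coding genes. Hsp23, Hsp67Ba, Hsp67Bc, Hsc70-4 and Hsf had none. The genes share windows, so these counts describe loci that are not independent of each other.

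**Figure D1:**
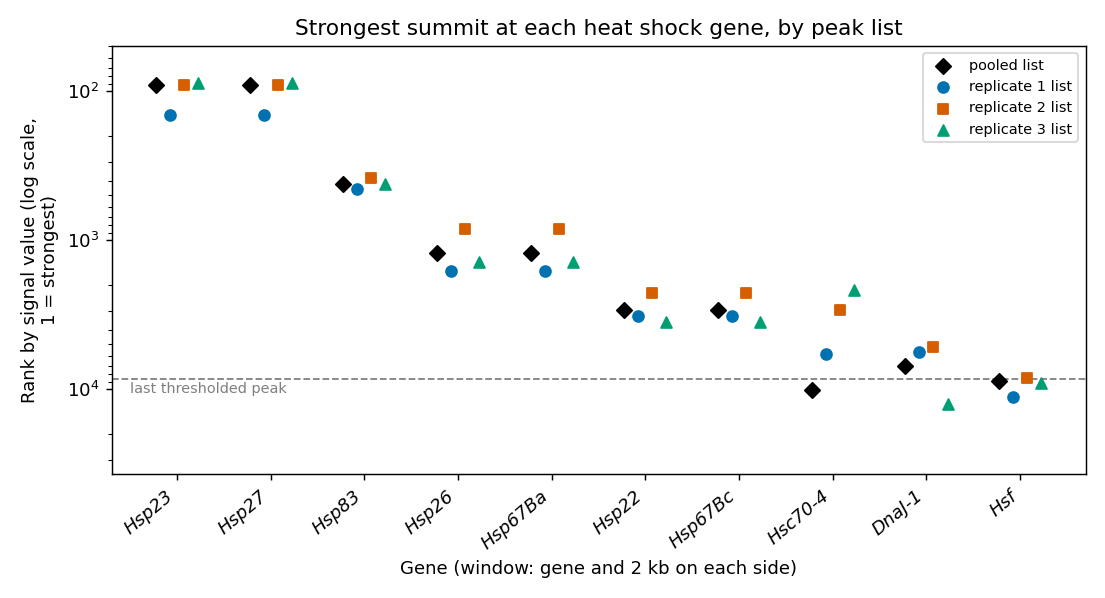
Rank of the strongest summit in the window of each gene (log scale, rank 1 at the top) in the pooled list and the 3 replicate lists; the dashed line marks rank 8529, the last thresholded peak. Hsp23 and Hsp27 share 1 summit at ranks 89 to 146, Hsp26 and Hsp67Ba share another, as do Hsp22 and Hsp67Bc, and the pooled summits of Hsc70-4 and Hsf lie below the line.

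The small heat shock genes stood at chr3L:9371511-9385694, a cluster of 14184 bp. It holds Hsp67Bc (9371511 to 9372497, minus strand), Hsp22 (9372931 to 9374964, plus strand), Hsp26 (9376418 to 9377427, minus strand), Hsp67Ba (9377802 to 9379534, minus strand), Hsp23 (9381882 to 9382765, plus strand) and Hsp27 (9384063 to 9385694, plus strand). It also holds the protein-coding genes CG4456, known as Hsp67Bb, and CG4461, and the antisense RNA gene asRNA:CR43481. The thresholded list had 3 summits between the ends of the cluster, at Hsp22, Hsp26 and Hsp27. That is 2.12 per 10 kb in the cluster against 0.694 per 10 kb over arm 3L, and 0.984 summits would lie in this length at the mean of the arm. Of 9435 adjoining windows of this length, 13.0% held at least 3 thresholded summits. The density of the cluster was therefore above the mean of the arm but was found in many other places. The pooled list had 9 summits there, and replicates 1 to 3 had 8, 5 and 4.

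**Figure D2:**
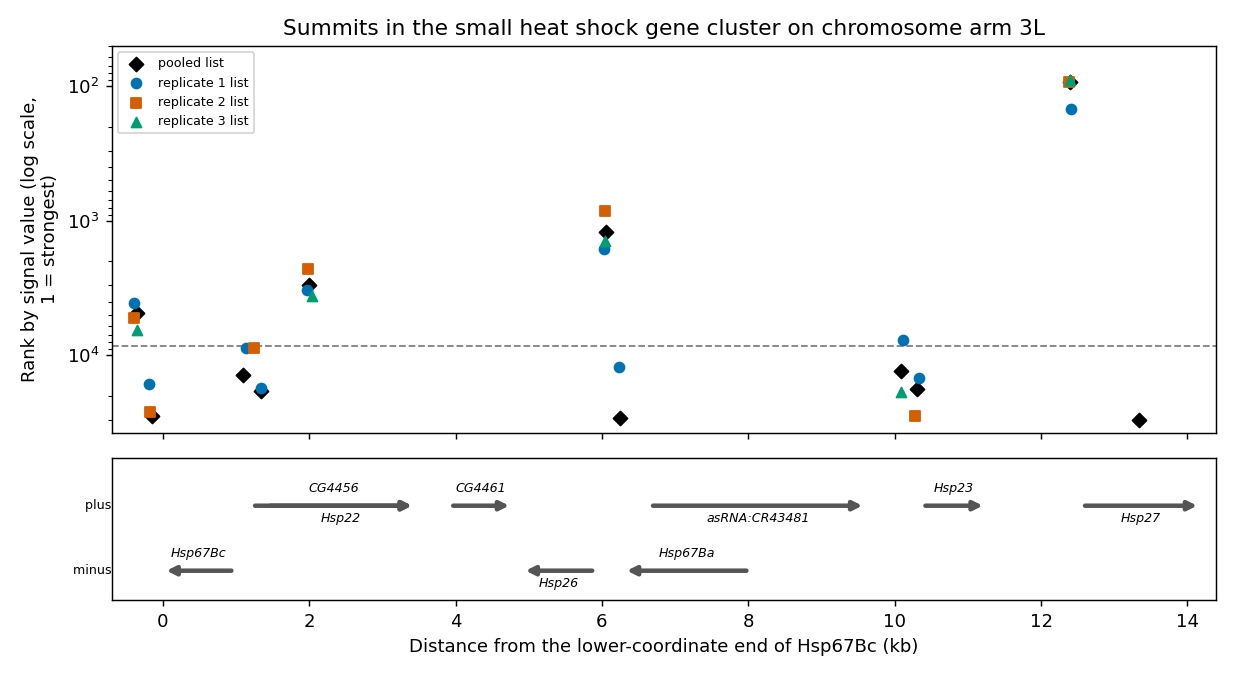
Rank of each summit (log scale, rank 1 at the top) along the small heat shock gene cluster in the pooled list and the 3 replicate lists, with the genes as arrows by strand below; the dashed line marks rank 8529. The lists coincide at Hsp27 (ranks 89 to 146), Hsp26 (842 to 1615) and Hsp22 (2260 to 3587), and at the left end beside Hsp67Bc, whereas no summit lies at the start of Hsp67Ba, the right end of its arrow.

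Hsp27, which encodes a small heat shock protein found in the nucleus, had the strongest summit of the 10 genes. It lay at 9383908, 155 bp upstream of the start, in a peak of 548 bp with a pooled signal value of 4799 and rank 92. Its rank was 146 in replicate 1, 92 in replicate 2 and 89 in replicate 3 (mean 109 ± 32.1, SD, n = 3), with signal values of 1159, 1310.0 and 2326. The 3 replicate summits lay at 9383918, 9383898 and 9383905, so they fell within 20 bp of each other. All 3 replicates thus placed this summit among their strongest, and none placed another summit in the window of Hsp27. The pooled list had 1 more, inside the gene at rank 29977, which no replicate list matched within 100 bp.

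Hsp26, which encodes a cytosolic small heat shock protein, had its summit at 9377561, 134 bp upstream of the outer of its 2 starts. The pooled signal value was 1353 and the rank 1218. The replicate ranks were 1615, 842 and 1416 (mean 1291 ± 401, SD, n = 3), with signal values of 309, 475 and 559 in replicates 1 to 3. In each replicate this summit was weaker than the one at Hsp27. The same summit lay 241 bp past the end of Hsp67Ba and was the only thresholded summit in that gene's window.

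Hsp22, which encodes a small heat shock protein of mitochondria, had a summit at 9373511, with a pooled signal value of 689 and rank 2978. It lay 486 bp upstream of the inner start at 9373997 and inside the 5′ UTR of a longer transcript that begins at 9372931. The ranks were 3239, 2260 and 3587 in replicates 1 to 3 (mean 3029 ± 688, SD, n = 3). The replicate summits lay at 9373480, 9373490 and 9373550, a range of 70 bp. The first 2 of these were 517 and 507 bp from the start, so the promoter call of Hsp22 rests on a summit at the edge of the 500 bp limit. The 50 bases on each side of the pooled summit were 87.1% A or T, with an unbroken run of 32 such bases.

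Hsp67Bc, whose product works with the co-chaperone Starvin, had no thresholded summit at its start, and counted only through the Hsp22 summit and a summit at 9371158. The position 9371158 is 80 bp from the start of Fdx1, which encodes a mitochondrial ferredoxin, and had a pooled signal value of 449.5 and rank 4851. Its ranks were 4060, 5254 and 6441 in replicates 1 to 3. Near the start of Hsp67Bc itself the strongest pooled summit lay 113 bp upstream, at rank 13869. Replicate 1 had a summit of rank 8810 within 100 bp of it, and replicates 2 and 3 had none. The replicate 2 summit of rank 8777 lay 263 bp upstream of Hsp67Bc and 38 bp from a start of CG4456. Replicate 3 had no summit within 500 bp of the start of Hsp67Bc. This space is shared with the start of CG4456, 112 bp from the pooled summit on the other strand.

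Hsp23, which encodes another cytosolic small heat shock protein, counted only through the Hsp27 summit, which lay 1143 bp past its end. At its own start the strongest pooled summit was 291 bp upstream, with rank 13116, and another stood 69 bp from the start at rank 17794. The strongest summits within 500 bp of the start had rank 7660 in replicate 1, 28137 in replicate 2 and 18589 in replicate 3. Only replicate 1 placed a summit of the Hsp23 promoter among its 8529 strongest. Hsp67Ba, also a small heat shock gene, had no summit within 500 bp of its start in any of the 5 lists.

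Hsp83 (chr3L:3192969-3197059, plus strand) encodes the fly Hsp90, an abundant chaperone of kinases and receptors that is expressed without stress and rises with it. It had 3 thresholded summits, the highest number of the 10 genes. The strongest was not at the promoter: it lay at 3194271 in the intron from 3193368 to 3194498, 228 bp before the next exon and 1055 bp from the inner start. The pooled signal value was 2583 and the rank 419. The replicate ranks were 456, 383 and 424 (mean 421 ± 36.6, SD, n = 3), with signal values of 693, 717 and 1177 in replicates 1 to 3. The 3 replicate summits fell within 14 bp, the tightest of the matched thresholded summits at these genes.

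The summit at the Hsp83 promoter lay at 3193085, 116 bp after the outer start at 3192969 and 131 bp before the inner start at 3193216. Its pooled signal value was 1231 and its rank 1403. The replicate ranks were 854, 1218 and 2387 (mean 1486 ± 801, SD, n = 3), so the intron summit was the stronger of the pair in all 3 replicates. The third summit, at 3197639, lay 580 bp past the end of Hsp83 and 8 bp from the start of CG14966. It had pooled rank 7886, ranks 8389 and 8551 in replicates 2 and 3, and no summit within 100 bp in replicate 1. Just outside the window of Hsp83, 2052 bp from the gene, was a summit of rank 2101 nearest to the start of gry. The farthest thresholded summit inside any window was that at Fdx1, 1773 bp from Hsp22.

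**Figure D3:**
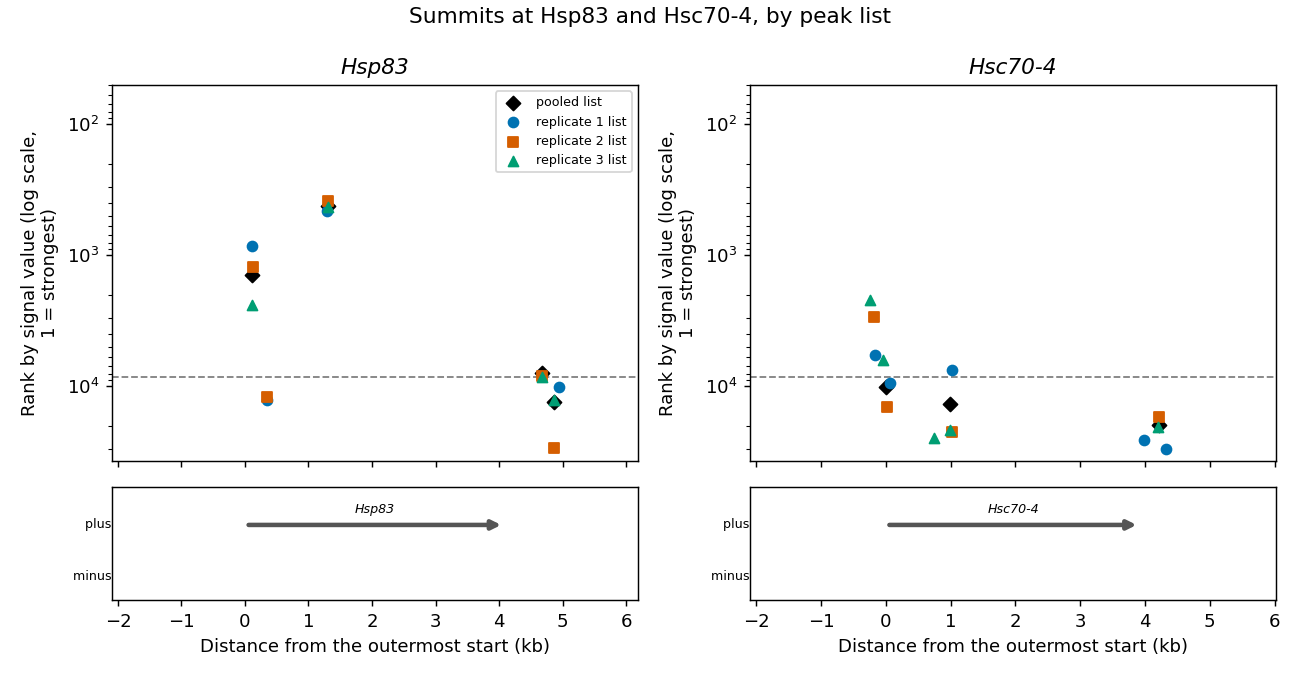
Rank of each summit (log scale, rank 1 at the top) in the windows of Hsp83 and Hsc70-4 against its distance from the outermost start, with the gene as an arrow below; the dashed line marks rank 8529. At Hsp83 all lists coincide at the promoter and in the intron, whereas upstream of Hsc70-4 the 3 replicates have summits at ranks 2176 to 5805 and the pooled list has its strongest at the start itself, rank 10136.

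Hsc70-4 (chr3R:15242687-15246614, plus strand) encodes the main cytosolic Hsp70 cognate, which is made without stress and serves in folding and in uncoating clathrin vesicles. It had no thresholded summit, and its strongest pooled summit lay 2 bp upstream of the outermost start, with signal value 207 and rank 10136. The replicate lists differed from this: each placed its strongest summit further upstream, at 172, 176 and 241 bp before the start. These had ranks of 5805, 2961 and 2176 in replicates 1 to 3 (mean 3647 ± 1909, SD, n = 3) and signal values of 113, 202 and 415. All 3 ranks would lie among the 8529 strongest peaks, and no pooled summit lay within 100 bp of any of them. Each replicate also had a weaker summit within 100 bp of the pooled one, at ranks 9472, 14477 and 6330 in replicates 1 to 3. The upstream summit of replicate 3 was nearer to the start of tefu, the gene of the fly ATM kinase, at 210 bp. The nearest thresholded summit outside the window was 13151 bp from the gene.

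The pooled peak, from 15242309 to 15242830, covered the 3 upstream positions. The lists thus differed in the place and rank of the strongest summit while all had a peak there. Of 5525 summits among the 8529 strongest of replicate 1 that were matched in both other replicates at the same depth of list, 51 (0.923%) had no pooled summit within 100 bp, and 75 (1.36%) had no thresholded one. The upstream summits at Hsc70-4 spread over 69 bp. How the pooled list was called from these reads is not given in the sources used here, and the source of the mismatch was not tested.

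DnaJ-1 (chr3L:5750029-5752189, minus strand) encodes an Hsp40 co-chaperone, which delivers clients to Hsp70. Its thresholded summit lay at 5752110, 79 bp after the start and in the 5′ UTR. The pooled signal value was 311 and the rank 7017, near the end of the thresholded list. The replicate ranks were 5695, 5259 and 12684 (mean 7879 ± 4167, SD, n = 3), with signal values of 114, 124 and 71.7. Replicate 3 thus placed it outside its own 8529 strongest peaks. The next thresholded summit was 16865 bp from the gene.

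Of the 8 distinct thresholded summits, 7 had a summit within 100 bp in all 3 replicate lists, against 88.8% of all thresholded summits. The exception was the summit at CG14966. Below the threshold the pooled list had 17 more summits in the windows, of which 4 were matched in all 3 replicates. The same share over all pooled summits below the threshold was not computed, so this count has nothing to stand beside. Of the 25 pooled summits, 8 had a stronger pooled summit within 300 bp, at 199 to 247 bp, against 22.2% of all pooled summits. None of these 8 was in the thresholded list. They stood beside the summits at Hsp26, DnaJ-1 and other starts, and whether they are separate sites was not tested.

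By the rank of the strongest summit in the replicates, the distinct loci ran in the order Hsp27, Hsp83, Hsp26, Hsp22, Hsc70-4, DnaJ-1 and Hsf. The 3 replicate ranks of Hsp27 did not overlap those of Hsp83, those of Hsp83 did not overlap those of Hsp26, and those of Hsp26 did not overlap those of Hsp22. From Hsp22 on, each gene's range overlapped that of its neighbour in the order: Hsp22 with Hsc70-4, Hsc70-4 with DnaJ-1, and DnaJ-1 with Hsf. The ranks of Hsp22 did not overlap those of DnaJ-1 or Hsf, and those of Hsc70-4 did not overlap those of Hsf. The promoter summits most like that of Hsp27 in their 3 replicate ranks, by the sum of the differences in log10 rank, were 2 on arm 3R. One was shared by CG6178 and p38a, with ranks 141, 103 and 74 and a sum of 0.144. The other was shared by CG7183 and CG7988, with ranks 147, 82 and 112 and a sum of 0.153.

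Hsf (chromosome arm 2R, 18130303 to 18134634, minus strand) encodes the heat shock factor itself. It had no thresholded summit, and the strongest pooled summit in its window had signal value 242 and rank 8816. This rank lies just past the last thresholded one, 8529. The summit lay at 18135341, which is 85 bp from the start of Pcl, the gene for a subunit of a Polycomb repressive complex. Its ranks were 11346, 8423 and 9155 in replicates 1 to 3 (mean 9641 ± 1521, SD, n = 3), with signal values of 61.7, 81.3 and 107. At the start of Hsf itself the strongest pooled summit lay 71 bp inside the gene at rank 10535. The strongest summits within 500 bp of that start had ranks 12514, 8633 and 14119 in replicates 1 to 3. The gene of the regulator thus had weaker summits than Hsp27, Hsp83 and Hsp26 in the pooled list and in each replicate list.

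Heat shock elements were next searched around the summits and the starts. In the 50 bases on each side of the 8 thresholded summits, 1 held a heat shock element, that of Hsp26, against 5.93% of all thresholded summits. Its centre lay 9.5 bp from the summit, and it is the second of the elements in capitals in the Hsp26 sequence above. The distance from the 8 summits to the nearest element had a median of 156.5 bp and ran to 624.5 bp at Fdx1. Over all thresholded summits the median was 675.5 bp, with quartiles of 274.5 and 1293.5 bp. The starts of the 10 genes held elements at a higher share than all protein-coding starts, as given below. Other positions in the same windows were not measured, so the shorter distance cannot be credited to the summits themselves. For Hsp27 the nearest element was 179.5 bp from the summit, upstream of the 250 bases shown. GAGAG was in none of the 8 windows, against 8.29% of all thresholded summits, and TATAAA was in 2, against 27.2%. The 8 windows had 51.5% to 87.1% A and T, with a median of 70.8%, against 70.3% for all thresholded summits and 57.8% for the chromosome arms.

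Promoters were searched from 250 bases before to 50 after each annotated start, on both strands, and the letters searched for may overlap. Of the 18 starts of the 10 genes, 10 held a heat shock element, against 15.8% of all protein-coding starts. By gene, 7 of 10 held one, and Hsp27, Hsp67Ba and Hsf held none in these windows. The share by gene over all protein-coding genes was not computed, and a gene with several starts has more windows that can hold one. Of the 7 genes with an element, Hsp22, Hsp26, Hsp83 and DnaJ-1 had a thresholded promoter summit, and Hsp23, Hsp67Bc and Hsc70-4 did not. In Hsp23 the first bases of the elements lay at -168 and -138 from the start, which counts as 0. In the inner promoter of Hsp22 they lay at -188 and -87, in Hsp67Bc at -119, in the inner promoter of Hsp83 at -68 and in DnaJ-1 at -7. GAGAG stood in 8 of the 18 starts, those of Hsp22, Hsp23, Hsp26 and Hsc70-4, against 33.1% of all protein-coding starts. TATAAA stood in 14 of the 18, against 42.2% of all protein-coding starts. Those 14 belonged to 8 of the genes, a count by gene that again has no share beside it. Starts of 1 gene can share sequence, and Hsc70-4 has 6 of the 18.

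**Figure D4:**
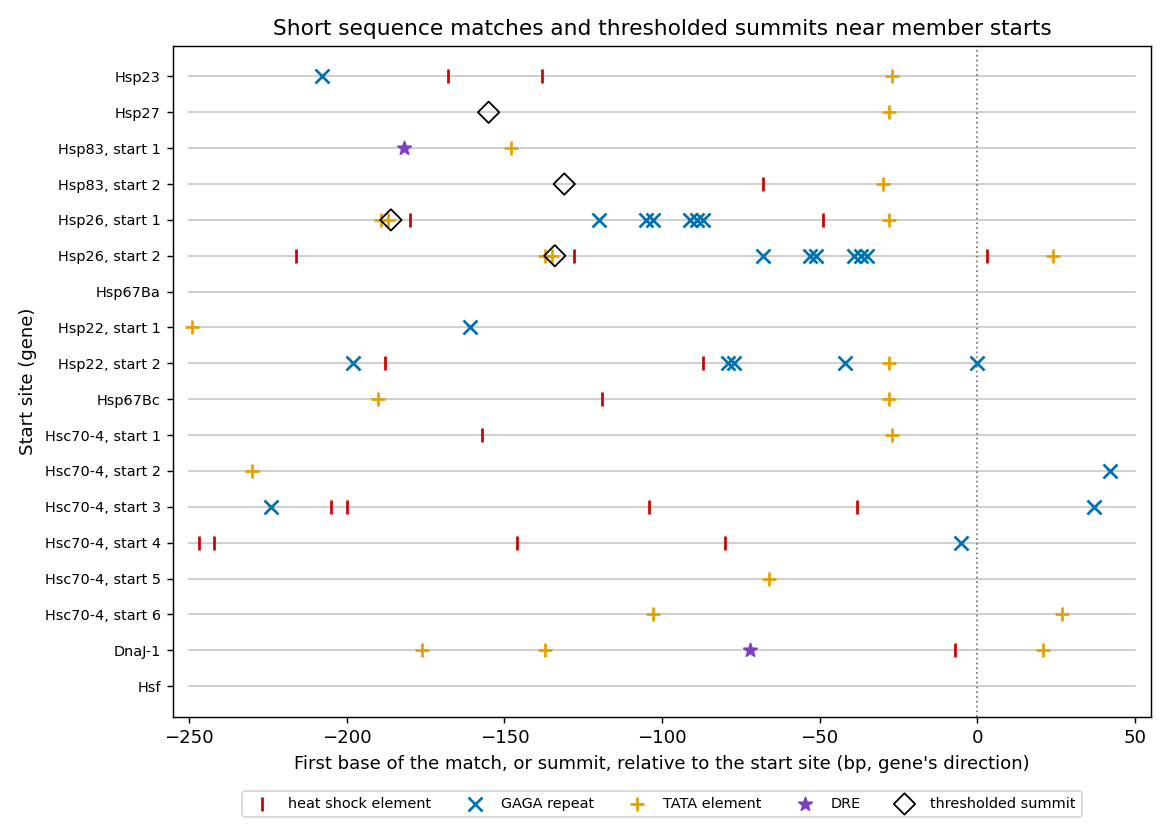
First base of each match to the heat shock element, the GAGA repeat, the TATA element and the Dref element (DRE), with thresholded summits, from 250 bp before to 50 bp after each start of the 10 genes; starts of 1 gene are numbered by coordinate. The Hsp26 summit stands beside a heat shock element, and the Hsp27 summit has none in this range. Hsp23, Hsp67Bc and Hsc70-4 have elements without a thresholded promoter summit. The thresholded promoter summits of Hsp22, 486 bp before its inner start, and DnaJ-1, 79 bp after its start, lie outside the range drawn.

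Over all protein-coding starts, the share with a summit was about as high with a heat shock element as without. A thresholded summit lay within 500 bp of 23.9% of starts with an element and of 24.6% of starts without one. For GAGAG the shares were 23.9% with and 24.8% without. For TATAAA they were 26.5% with and 23.1% without. TATCGATA, the core of the element bound by the factor Dref, gave 42.4% with and 23.0% without, and GGTCACACT, a core promoter element bound by the factor M1BP, gave 39.1% with and 23.7% without. Of the 10 genes, Hsp83 and DnaJ-1 held TATCGATA, at -182 from the outer start and at -72, and both had a thresholded promoter summit. TATCGATA stood in 7.98% of all starts. GGTCACACT stood in 5.23% of them and in none of the 18.

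The other heat shock and chaperone genes were taken from a list of 43 symbols, of which 40 genes were measured. In their windows 23 of the 40 had a thresholded summit, against 43.8% of all protein-coding genes, and 28 had a pooled one, against 59.4%. Of the 23, CG4456 and CG4461 counted only through summits already described at Hsp22, Hsp26 and Fdx1. A thresholded summit within 500 bp of a start was found for 18, against 26.7%. The strongest of these was at the stress-induced noncoding RNA gene lncRNA:Hsromega, with rank 492. It was followed by Hsc70-5, a mitochondrial Hsp70, with rank 663, and mrj, an Hsp40, with rank 697. Of the chaperonin subunits, which form a ring that folds actin and tubulin, CCT3, CCT8, CCT5, CCT1, CCT7 and CCT6 had promoter summits at ranks 1831 to 7070. CCT2 and CCT4 had no thresholded summit. Gp93, the Hsp90 of the endoplasmic reticulum, had rank 2348 and Hsc70-3, its Hsp70, had rank 5163. Droj2 and P58IPK, both of the Hsp40 family, had ranks 4423 and 5488, and the Hsp90 co-chaperone Cdc37 had 4840. The stress-induced Hsp68 had rank 7253, stv, the gene of Starvin, had 7840, and the mitochondrial chaperones Hsp60A and Trap1 had 8245 and 8246. These are ranks at starts. The windows of stv, CCT5, Trap1 and Hsp68 also held a stronger thresholded summit away from the starts, at ranks 474, 2489, 3582 and 7194.

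The 6 stress-induced Hsp70 genes had no thresholded summit in their windows, and 2 of the 6, Hsp70Aa and Hsp70Ab, shared 1 pooled summit of rank 28520. Of the replicates only replicate 2 had a summit in these windows, at rank 29101, and it lay more than 100 bp from the pooled one. These genes are near-identical copies, so reads from them may not be placed to 1 copy, and their values are uncertain. For the pausing of polymerase, 9 genes were measured. Of these, 7 had a thresholded summit in their window, against 43.8% of all protein-coding genes, and 6 had one at a start, against 26.7%. Those 6 were Nelf-E at rank 1332, Trl at 1860, NELF-B at 2594, Nelf-A at 5325, spt4 at 5859 and CycT at 6492. The window of Trl also held a stronger thresholded summit away from the starts, at rank 14. Spt5 had a thresholded summit in its window but none at a start, and TH1 and Cdk9 had none.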

How the data were processed

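Chromatin immunoprecipitation was sequenced in 3 biological replicates. The authors deposited a peak list for each, one for the pooled reads and one cut by the irreproducible discovery rate (IDR). All are on dm6, per the labels. The IDR measures how alike peaks rank between replicates. No aligner or peak caller is named in the labels (not given in the sources used here). The signal value is a score deposited by the authors on an unstated scale, and served only for ranks inside each list. The −log10 q-value that the authors deposited was the same for all thresholded peaks and could not rank them. The lowest thresholded signal value was 252.163 and the highest one left out was 252.15. Membership of a peak in the thresholded list thus followed its pooled signal value, and a listed peak need not rank alike in the replicates.

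Summits were placed with Python 3.11.15, pandas 2.3.3 and NumPy 2.4.6 on Ensembl release 115 (BDGP6.54), in 1-based coordinates, which matched RefSeq for all 10 genes. Summits within 100 bp counted as matched, and a promoter reached 500 bp on both sides of a start. With 1 group and no control list, no test was run, and counts stand beside those over all genes. Scripts were tested on simulated data. The members and lists were chosen with earlier results of these data known. Genes named were the members, genes whose start was nearest to their summits or that lie in the cluster, listed chaperone and pausing genes with a promoter summit, and those most like Hsp27. Other named genes were chosen after their values were seen. Alternatives changed the flank, list, match distance and windows.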

Additional observations from a re-analysis of the deposited data

How the results depend on the processing

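Of 41 alternative counts, 35 stayed within 1.5 times the reported one. Without a flank, 3 genes and 4 distinct summits counted in the thresholded list, against 15.6% of all protein-coding genes, and 6 genes in the pooled list, against 29.3%. A flank of 5000 bp gave 13 thresholded summits, and the stronger 4264 thresholded peaks gave 5. In the 100 bases on each side of the summit, 3 of 8 held a heat shock element, against 11.2% of all thresholded summits. Each replicate was also left out, using summits matched in the other replicates. Then 8 genes had a thresholded summit each time, and 7 to 8 distinct summits were left. A promoter summit was left at 5 genes each time, and 7 to 8 summits were matched. These counts could hardly change. The thresholded list still rested on all 3 replicates, and 7 of its 8 summits here were already matched in all 3. The strongest 8529 peaks of 1 replicate then replaced the thresholded list. In replicates 1 to 3, 9, 10 and 8 genes had a summit, and 6, 5 and 5 had a promoter summit. The shares of all protein-coding genes at this depth of list were not computed, so these counts have nothing to stand beside. The genes with a promoter summit changed between replicates. Hsp27, Hsp26 and Hsp83 had one in all 3, as did Hsc70-4, which had no thresholded summit. Hsp22 had none in replicates 1 and 2, where its strongest summits within 500 bp of a start had ranks 8810 and 8777. Hsp23 had one in replicate 1 only, and DnaJ-1 in replicates 1 and 2. The strongest summit of DnaJ-1 had rank 12684 in replicate 3, outside those 8529. Within 200 bp of a start 4 genes had a thresholded summit, Hsp22 being the one lost. The share of all protein-coding genes was not computed for this distance. Ranking by the fifth column was not run, because it holds 0 for every peak. No paired analysis was possible because there is 1 group. The depth is unknown.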
